A study of Mus musculus with 16 samples.

Results

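The paraoxonases are a family of 3 genes, Pon1, Pon2 and Pon3, and all 3 were among the 23179 genes listed for mammary adipose tissue. The members were taken by name. The family was selected on a measured value of Pon1, which was lower in obese than in lean mice, so that difference is given here as a description and without a test. All 3 members passed the filter on low values, which left 21218 genes for testing.

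RNA was measured in the mammary fat pad contralateral to an orthotopic E0771 tumor, E0771 being a mouse mammary cancer cell line, in wild-type C57BL/6N mice. Each of 4 groups had 4 libraries, each from a separate mouse by its animal number. CON-LFD mice received a control low-fat diet throughout. Mice with diet-induced obesity (DIO) from a high-fat diet formed the other groups. DIO-HFD mice stayed on that diet, DIO-LFD mice were switched to the low-fat diet, and DIO-VSG mice were switched likewise after vertical sleeve gastrectomy, an operation on the stomach. All mice without gastrectomy had sham surgery, and tumor cells were given to all groups 22 weeks after the first randomization, so no group was free of a tumor. Libraries held 46907377 to 57610899 reads, and the deposited values were converted back to normalized counts, which are reads divided by the size factor of the library.

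Paraoxonases are calcium-dependent hydrolases of lactones and esters. Pon1 and Pon3 are made mainly in liver and circulate on high-density lipoprotein (HDL), where Pon1 is known for hydrolyzing organophosphates such as paraoxon and for protecting lipoproteins from oxidation. Pon2 is made in most tissues and stays inside cells, where it is found on membranes and limits oxidative stress. In adipose tissue the fat cell, blood vessels, immune cells and mammary epithelium all contribute RNA, and in such bulk samples fewer cells of a type and less RNA per cell cannot be told apart.

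The 3 genes lie side by side on the minus strand of chromosome 6 of GRCm38, in the order Pon1 (5168090 to 5193946), Pon3 (5220852 to 5256286) and Pon2 (5264147 to 5298455). Gaps of 26905 bp and 7860 bp separate them, and the longest protein-coding transcript of each has 9 exons. Their longest open reading frames share 65.4% to 68.7% of aligned bases, and no stretch of 31 bases is common to any pair of their transcripts, so reads of one member are separable from those of another. A provisional gene model on the opposite strand, Gm44424, lies within Pon2, and Pon1 and Pon3 overlap no other annotated gene.

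Because these adjacent genes differed in level, the sequence just upstream of each start is shown, from RefSeq on GRCm38.p6, written 5′ to 3′ along the gene. Each stretch ends at the base before the outermost annotated start. Capitals mark CCAAT boxes (read as ATTGG) in Pon1, at chr6:5193947-5194196, and a GC box, GGGCGG, in Pon3, at chr6:5256287-5256483, while the Pon2 stretch at chr6:5298456-5298590 holds none of the motifs searched.
Pon1: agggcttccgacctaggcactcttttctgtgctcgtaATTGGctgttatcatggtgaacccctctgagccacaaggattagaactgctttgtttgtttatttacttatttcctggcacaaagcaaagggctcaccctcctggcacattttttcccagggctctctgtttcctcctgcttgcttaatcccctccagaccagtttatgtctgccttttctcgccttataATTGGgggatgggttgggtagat
Pon3: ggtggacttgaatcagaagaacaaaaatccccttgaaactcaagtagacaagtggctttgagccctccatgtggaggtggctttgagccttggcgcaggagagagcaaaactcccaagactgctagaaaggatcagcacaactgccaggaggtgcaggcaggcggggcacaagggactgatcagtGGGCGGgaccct
Pon2: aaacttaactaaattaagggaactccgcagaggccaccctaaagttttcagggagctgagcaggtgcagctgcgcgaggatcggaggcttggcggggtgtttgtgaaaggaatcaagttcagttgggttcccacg

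Motifs were searched on both strands over the whole RefSeq window of each gene, 250 bases before to 50 bases after its start. Pon1 had 2 CCAAT matches, beginning at -213 and -23 relative to the start, and no GGGCGG. Pon3 had 1 GGGCGG at -65. Pon2 had 3 GGGCGG, at -79, -47 and -17, and 1 match of GCGTG, the core of the aryl hydrocarbon receptor element, at -119. No match overlapped another, and TATAAA was in none of the 3 windows. Among all 32851 windows of this length, 35.66% held GGGCGG, 37.41% CCAAT, 32.39% GCGTG and 13.62% TATAAA. The windows also differed in base composition, with 49.3% G and C and 3 CG dinucleotides in Pon1, 57.7% and 7 in Pon3, and 67.7% and 31 in Pon2, against medians of 52.7% and 7 over all windows. Such matches describe the sequence and are not evidence of binding.

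Pon2 and Pon3 were abundant transcripts of this tissue and Pon1 was a scarce one. Per length (reads per kilobase of the longest transcript, scaled to the reads of the library, RPKM), the mean over 16 libraries was 33.4 for Pon3, 27.4 for Pon2 and 1.12 for Pon1. These levels stood at the 90.9th, 88.5th and 30.7th percentile of 20334 tested genes with a known length. In CON-LFD, Pon1 made up 3.07% ± 0.319 (SD, n = 4) of the summed RPKM of the family, Pon2 39.5% ± 4.07 and Pon3 57.4% ± 4.31. The Pon1 share was 0.794% ± 0.479 in DIO-HFD, 2.12% ± 0.373 in DIO-LFD and 0.889% ± 0.203 in DIO-VSG.

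Pon1 was highest in lean mice, lower in mice that lost weight by diet, and lowest both in mice that stayed obese and in mice that had sleeve gastrectomy. The CON-LFD libraries held 218.5, 169.6, 143.9 and 217.0 normalized counts of Pon1. The DIO-HFD libraries held 12.0, 42.1, 33.8 and 62.3. All 4 obese libraries were below every lean library.

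In DIO-LFD, Pon1 stood at 139.8, 81.3, 88.6 and 121.6 normalized counts. The DIO-VSG libraries held 44.6, 36, 28.7 and 37.2. The DIO-LFD range lay wholly between the CON-LFD range and the other ranges, whereas DIO-VSG fell inside the range of DIO-HFD. The lowest library, DIO-HFD replicate 1, held 13 reads of Pon1, whose 95% Poisson interval of 6.41 to 20.6 normalized counts covers counting error only.

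**Figure D1:**
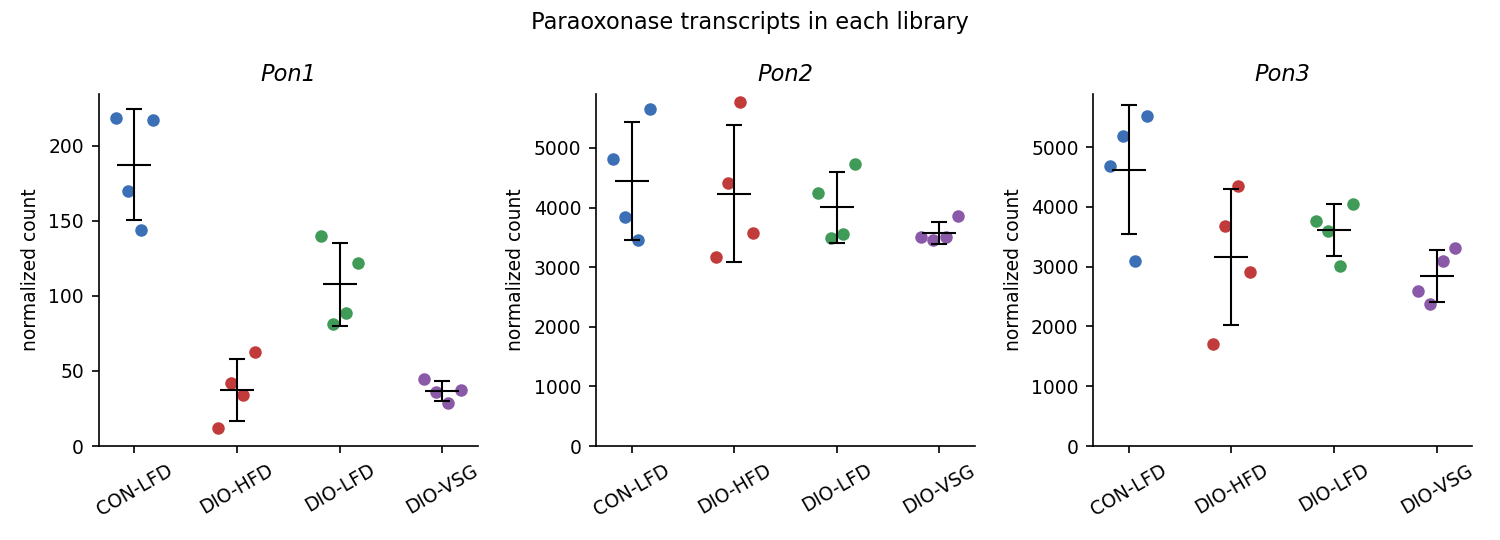
Normalized counts of Pon1, Pon2 and Pon3 (linear vertical axes, a scale for each gene) in the 16 libraries, with 1 point per library and the group mean ± SD in black. Pon1 means were 187.3 in CON-LFD, 37.5 in DIO-HFD, 107.8 in DIO-LFD and 36.6 in DIO-VSG, while the group ranges of Pon2 and of Pon3 overlapped in every pair of groups.

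The difference that led to the choice of the family was a log2 fold change of Pon1 of -2.48 (SE 0.38, 95% interval -3.29 to -1.66) in DIO-HFD relative to CON-LFD, a 5.56-fold lower level. Pon1 was the 1 member of 3 whose groups did not overlap, beside 4.76% of all genes tested. Over all genes, limma called 8 (0.0377% of those tested) at an adjusted p under 0.05 in this comparison, and no test of a member is given. Since these values chose the gene, nothing further is read from them. Leaving out DIO-HFD replicate 1, its lowest library, gave -2.02.

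The comparisons of Pon1 that share CON-LFD or DIO-HFD with that one are likewise given without a test. Relative to DIO-HFD, Pon1 was 3.19-fold higher in DIO-LFD (log2 fold change 1.67, SE 0.38, interval 0.86 to 2.48), with no overlap of the groups. In DIO-VSG relative to DIO-HFD the log2 fold change was 0.16 (SE 0.38, interval -0.66 to 0.97) and the groups overlapped, and without DIO-HFD replicate 1 it was -0.29. Relative to CON-LFD, Pon1 was 4.99-fold lower in DIO-VSG (log2 fold change -2.32, SE 0.38, interval -3.13 to -1.50). In DIO-LFD it was 1.75-fold lower than in CON-LFD (-0.80, SE 0.38, interval -1.62 to 0.01). The groups did not overlap in either comparison with CON-LFD, although the interval for DIO-LFD included 0.

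The weight loss groups were also compared with each other, and neither is a group by which Pon1 was chosen. The fold change and the permutation test use these groups alone, whereas limma's SE, interval and p rest on the spread within all 4 groups. Pon1 was 2.86-fold lower in DIO-VSG than in DIO-LFD (log2 fold change -1.51, SE 0.38, interval -2.33 to -0.70), in 4 of 4 DIO-VSG libraries below every DIO-LFD library. An exact two-sided permutation test over the 70 ways to split these 8 libraries gave p = 0.0286, the smallest it can give, and was run for 3 members. By limma the unadjusted p was 0.00132 and the adjusted p over all genes tested was 0.509, so the difference did not pass the threshold across all genes. It passed under 2 of 30 alternatives, a fit of these groups alone (adjusted p = 0.0152) and library weights (0.0494), which called 1533 and 184 of the 21218 genes in this comparison where the unweighted fit of all groups called 0, and the highest adjusted p was 0.999, with the adipocyte score as a covariate. Groups that did not overlap were common in this comparison, at 18.8% of all genes tested.

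Counts over all genes set the background for the family. In 4 comparisons, namely DIO-VSG over DIO-HFD, DIO-LFD over DIO-HFD, DIO-VSG over DIO-LFD and DIO-VSG over CON-LFD, limma called 0 genes (0%). It called 1 gene (0.00471%), which was no paraoxonase, in DIO-LFD over CON-LFD. Unadjusted p values under 0.05 were found for 2794 (13.2%), 1809 (8.53%), 2061 (9.71%) and 3771 (17.8%) genes in those 4 comparisons and for 2735 (12.9%) in DIO-HFD over CON-LFD, and limma-voom called 0 genes in all 6. Groups did not overlap for 6.59% of genes in DIO-VSG over DIO-HFD, 4.51% in DIO-LFD over DIO-HFD, 7.02% in DIO-VSG over CON-LFD and 3.53% in DIO-LFD over CON-LFD. Pon1 was the 1 member without overlap in the last 3 of these, and no member was in the first.

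Pon3, the other HDL-borne member, varied over a narrower range than Pon1. Its group means of normalized counts had the same order, although for Pon1 DIO-HFD and DIO-VSG were nearly equal and their order turned on the log2 scale. Its CON-LFD libraries held 4685.9, 5186.2, 3093.1 and 5519.6 normalized counts. The DIO-HFD libraries held 1709.1, 3687.3, 4356.9 and 2914.5, which overlapped with CON-LFD. DIO-HFD replicate 1 was the lowest of all 16 libraries for Pon3, as it was for Pon1.

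DIO-LFD libraries held 3766.8, 3604.5, 3015.1 and 4050.5 normalized counts of Pon3. In DIO-VSG the values were 2589.0, 2379.9, 3097.6 and 3311.6. Group means ran from 4621.2 ± 1074.8 (SD, n = 4) in CON-LFD through 3609.2 ± 436.9 in DIO-LFD and 3167.0 ± 1136.6 in DIO-HFD to 2844.5 ± 433.4 in DIO-VSG, and every pair of groups overlapped.

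The log2 fold change of Pon3 in DIO-HFD relative to CON-LFD was -0.59 (SE 0.25, interval -1.13 to -0.06), given without a test, and was -0.32 without DIO-HFD replicate 1. Pon3 was 1.60-fold lower in DIO-VSG than in CON-LFD (log2 fold change -0.68, interval -1.21 to -0.14), which did not pass limma's test across all genes (unadjusted p = 0.0167, adjusted p = 0.268). Between DIO-VSG and DIO-LFD the log2 fold change was -0.35 (interval -0.88 to 0.19), with a limma adjusted p of 0.572 and an exact two-sided permutation p of 0.0857. The other 3 comparisons of Pon3 gave log2 fold changes of -0.33 to 0.26 and limma adjusted p values of 0.873 to 0.883. The intervals between neighbors in the order of group means all included 0.

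Pon2, the intracellular member, showed the least difference among groups. The CON-LFD libraries held 4817.2, 3849.4, 3462.1 and 5646.2 normalized counts, and the DIO-HFD libraries 3176.7, 4407.8, 5777.9 and 3575.0. DIO-LFD libraries held 4251.6, 3493.4, 3551.6 and 4734.0, and DIO-VSG libraries 3498.6, 3458.3, 3510.2 and 3852.0. The DIO-VSG values were tightly grouped, with a coefficient of variation of 5.11% against 14.8% to 27.2% in the other groups, and all lay inside the range of DIO-HFD.

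In the 5 comparisons tested, the log2 fold change of Pon2 lay between -0.29 and -0.05 and the limma adjusted p between 0.384 and 0.977. In DIO-HFD relative to CON-LFD, which was not tested, it was -0.08 (interval -0.47 to 0.31). Between DIO-VSG and DIO-LFD the exact two-sided permutation p of Pon2 was 0.229. The 95% intervals of the 6 comparisons lay within -0.68 to 0.34.

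**Figure D2:**
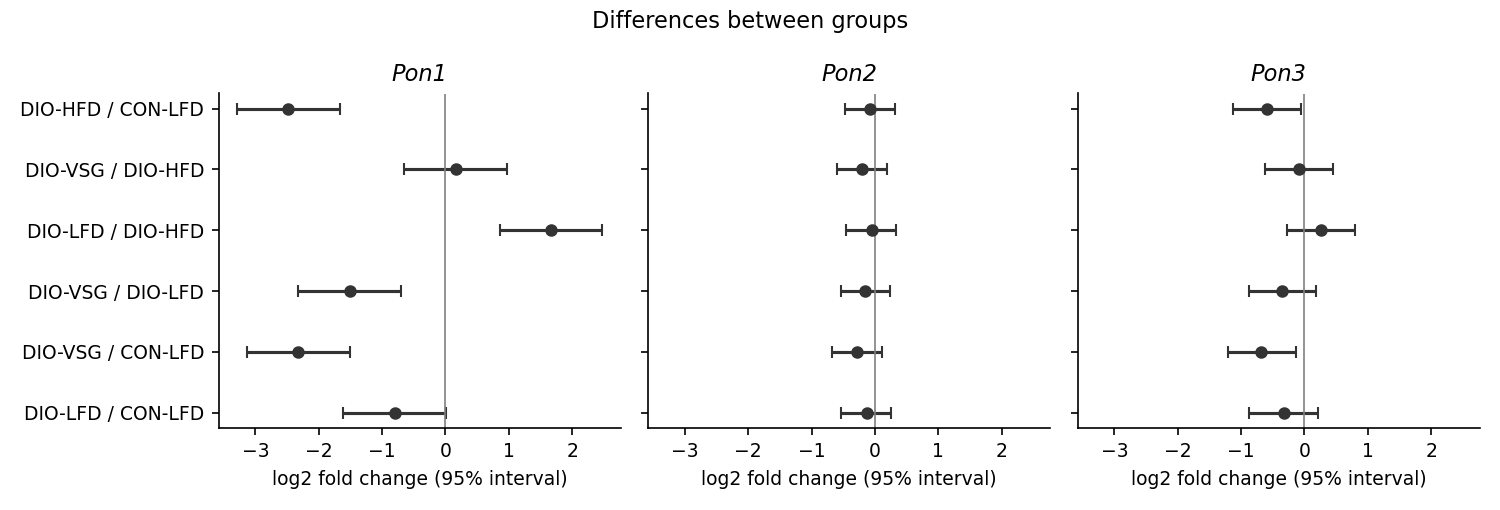
Log2 fold changes of Pon1, Pon2 and Pon3 in the 6 pairwise comparisons (points) with 95% intervals from limma (bars), the first group named over the second and the vertical line at 0. The interval of Pon1 lies wholly to one side of 0 in 4 comparisons, from -2.48 in DIO-HFD relative to CON-LFD to 1.67 in DIO-LFD relative to DIO-HFD, and the Pon2 intervals include 0 in all 6.

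Ratios within a library do not depend on how libraries are scaled. Per length, Pon2 exceeded Pon1 12.0- to 14.2-fold in CON-LFD and 31.3- to 144-fold in DIO-HFD. In DIO-LFD the ratio was 16.6 to 23.4, and in DIO-VSG 42.7 to 66.5. The ranges of CON-LFD, DIO-LFD and DIO-VSG were thus separate from one another, and that of DIO-HFD enclosed that of DIO-VSG.

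The ratio of Pon3 to Pon1 was 16.4 to 23.4 in CON-LFD, 35.9 to 109 in DIO-HFD, 20.7 to 34.0 in DIO-LFD and 44.5 to 82.6 in DIO-VSG. Here CON-LFD and DIO-LFD overlapped. Pon3 exceeded Pon2 in all 4 CON-LFD libraries, with a ratio of 1.26 to 1.90, and in all 4 DIO-LFD libraries, with 1.19 to 1.45. In DIO-HFD the ratio of Pon3 to Pon2 was 0.757 to 1.18, below every CON-LFD library, and in DIO-VSG it was 0.968 to 1.24. The ratio between members depends on the transcript length assumed, whereas its order among groups does not.

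**Figure D3:**
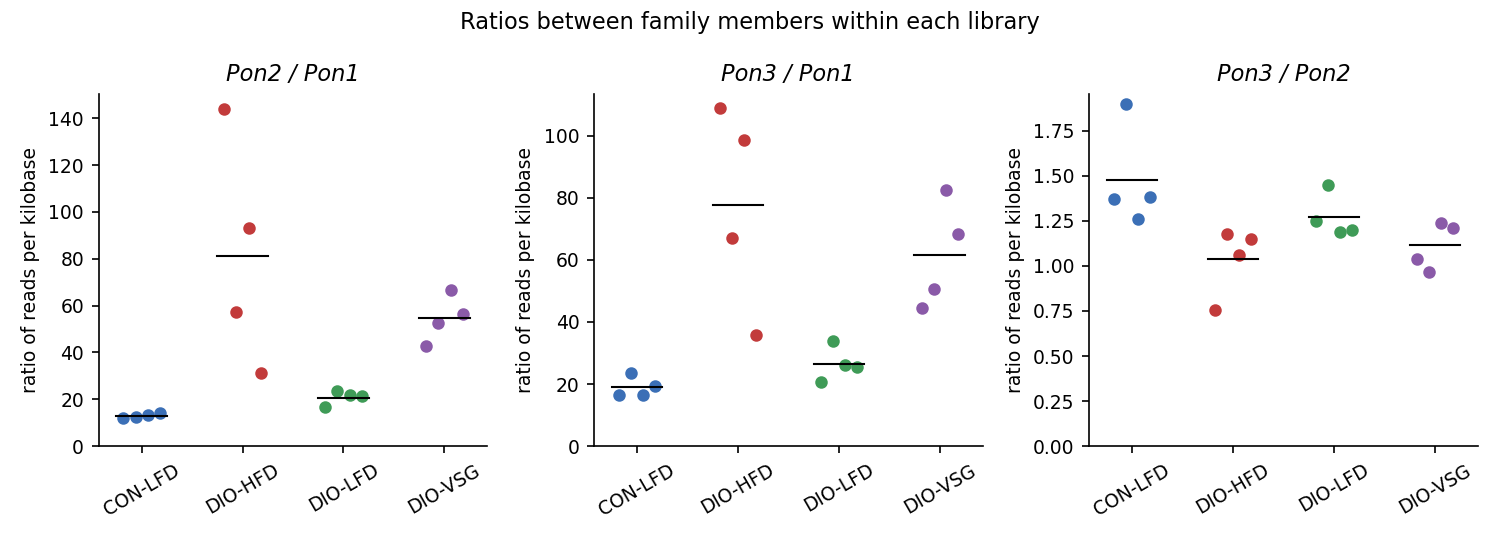
Ratios of reads per kilobase between members within each library (1 point per library, group mean as a line, linear axes from 0). The ratio of Pon2 to Pon1 averaged 12.9 in CON-LFD, 81.3 in DIO-HFD, 20.8 in DIO-LFD and 54.5 in DIO-VSG, and the ratio of Pon3 to Pon2 averaged 1.47, 1.04, 1.27 and 1.12.

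Markers of liver, the main site of Pon1 and Pon3, were examined beside the members. Of 18 hepatocyte markers, 7 (Ttr, Ambp, Fga, Cps1, Tat, Apob and Apoh) were too low to test, so low sums follow from that choice. In each CON-LFD library these 7 summed to 3 to 6 reads, the whole list to 2858 to 4910, and Pon1 had 156 to 216. DIO-LFD replicate 1 was the exception, with 540 reads of these 7 genes against 3 to 13 in each of the other 15 libraries, and it held the highest Pon1 of its group. Without that library, the log2 fold change of Pon1 was -1.38 for DIO-VSG over DIO-LFD and 1.54 for DIO-LFD over DIO-HFD. Serum albumin (Alb) was read 480 to 3810 times per library. Its group means were 2835.2 ± 1059.3 normalized counts (SD, n = 4) in CON-LFD, 944.2 ± 381.7 in DIO-HFD, 2879.1 ± 863.0 in DIO-LFD and 2466.1 ± 511.6 in DIO-VSG. The DIO-HFD libraries lay below every library of the other groups. The log2 fold change of Alb was -1.62 in DIO-HFD relative to CON-LFD, and 1.67 in DIO-LFD and 1.47 in DIO-VSG relative to DIO-HFD. Limma adjusted p values were 0.139, 0.296 and 0.243, and 4.76%, 4.51% and 6.59% of all genes did not overlap there.

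The other hepatocyte markers tested did not share one pattern. The fibrinogen chain Fgb averaged 235.5 ± 198.1 normalized counts (SD, n = 4) in CON-LFD, 57.3 ± 44.5 in DIO-HFD and 226.4 ± 320.5 in DIO-LFD, and its log2 fold change in DIO-VSG relative to DIO-LFD was -1.39 (limma adjusted p = 0.633). Fgg, another fibrinogen chain, averaged 703.4 ± 524.1 in CON-LFD, 206.9 ± 140.6 in DIO-HFD, 570.4 ± 639.4 in DIO-LFD and 227.6 ± 185.5 in DIO-VSG. Their DIO-LFD means rested on replicate 3, with 702.3 of Fgb and 1500.9 of Fgg, and without it were 67.7 and 260.3, while Pon1 in that library was 88.6. Serpina1b, a protease inhibitor, ran the other way, with 124.7 ± 156.1 in CON-LFD, 283.8 ± 332.1 in DIO-HFD, 257.8 ± 52.2 in DIO-LFD and 466.1 ± 95.5 in DIO-VSG. Tdo2, an enzyme of tryptophan breakdown, had group means of 58.4 to 79.6.

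The score of the 11 hepatocyte markers tested, their mean centered log2 level, was 0.25 ± 0.39 (SD, n = 4) in CON-LFD, -0.54 ± 0.29 in DIO-HFD, 0.51 ± 0.96 in DIO-LFD and -0.21 ± 0.19 in DIO-VSG. Without DIO-LFD replicate 1, which scored 1.94, the DIO-LFD mean was 0.03. Of these 11, limma called none in any comparison. The estimate was lower for 9 in DIO-HFD than in CON-LFD and for 9 in DIO-VSG than in DIO-LFD, with 1 of them in each at an unadjusted p under 0.05, beside 12.9% and 9.71% of all genes. The median log2 fold change of the 11 was -1.07 in DIO-HFD relative to CON-LFD and -0.41 in DIO-VSG relative to DIO-LFD. For DIO-LFD over DIO-HFD it was 1.05. Over all genes these medians were 0.02, -0.02 and 0.01. The part of liver transcripts in the Pon1 values was not tested.

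Adipocyte markers were high in every library, with Fabp4, the fatty acid carrier of fat cells, at 202374 reads or more and Adipoq (adiponectin) at 32883 or more. A score, the mean centered log2 level of 13 adipocyte markers, was 0.21 ± 0.34 (SD, n = 4) in CON-LFD, -0.17 ± 0.68 in DIO-HFD, 0.22 ± 0.34 in DIO-LFD and -0.26 ± 0.22 in DIO-VSG. The lowest score, -1.13, belonged to DIO-HFD replicate 1, the library with the lowest Pon1, Pon2 and Pon3. Over 16 libraries, which share scaling and depth, Pearson's r with this score was 0.89 for Pon3, 0.72 for Pon2 and 0.69 for Pon1, and after group means were removed it was 0.91, 0.74 and 0.72. With the score as a term in the fit, Pon1 was -2.13 (SE 0.30) in DIO-HFD relative to CON-LFD, 1.31 (SE 0.30) for DIO-LFD over DIO-HFD and -1.06 (SE 0.31) in DIO-VSG relative to DIO-LFD. The Pon3 values in the same fit were -0.29 (SE 0.12), -0.05 (SE 0.12) and 0.04 (SE 0.13). Relative to CON-LFD, Pon3 was -0.34 (SE 0.11) in DIO-LFD and -0.30 (SE 0.12) in DIO-VSG, against -0.33 and -0.68 without the score.

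**Figure D4:**
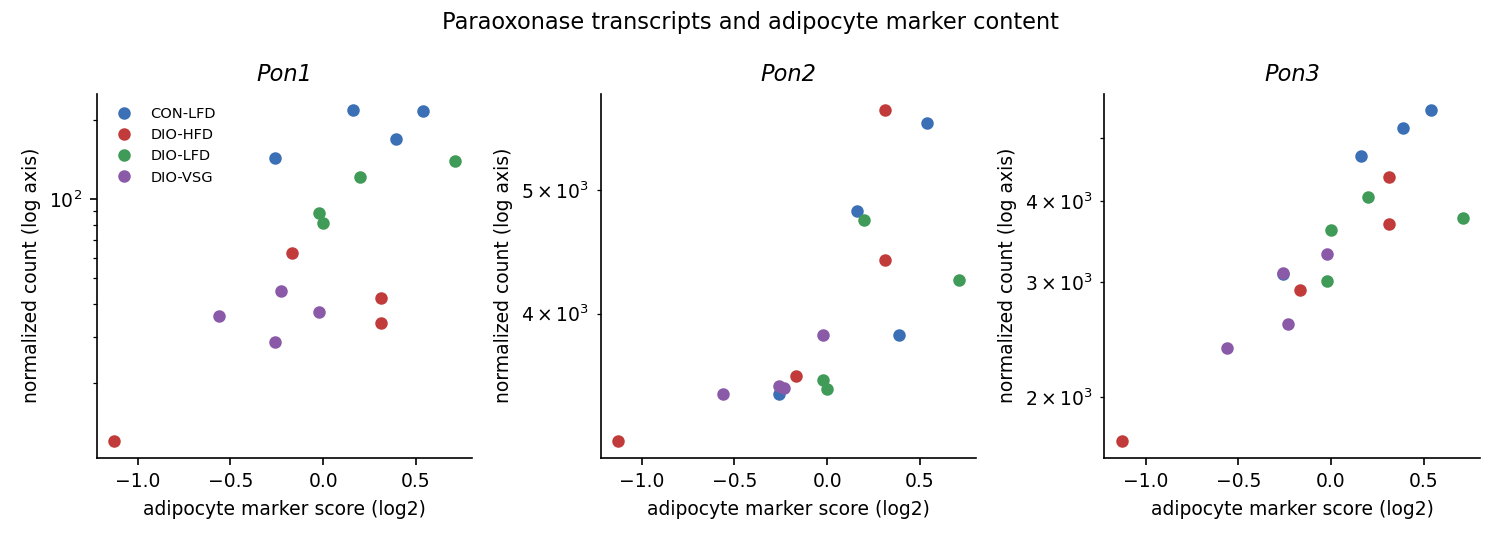
Normalized count of each member (log axis) against the adipocyte marker score of the library (log2 units), colored by group. Pon3 follows the score across all groups (r = 0.89, 16 libraries), and r is 0.69 for Pon1.

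Lymphocyte markers, which a lymph node in the fat pad can supply, varied widely within CON-LFD and DIO-HFD. The summed level of 10 B cell markers ranged from 341.4 to 79655 normalized counts in CON-LFD, 1147 to 105669 in DIO-HFD, 18854 to 43107 in DIO-LFD and 71893 to 83576 in DIO-VSG. Limma called no B or T cell marker in any comparison. At an unadjusted p under 0.05, 10 B cell and 8 T cell markers were higher in DIO-VSG than in CON-LFD (beside 17.8% of all genes), 1 T cell marker was higher in DIO-VSG than in DIO-LFD, and none passed in the other 4 comparisons. All 10 B cell and all 10 T cell markers were without overlap, higher, in DIO-VSG than in DIO-LFD, the comparison in which 18.8% of genes did not overlap. Pearson's r with the B cell score was -0.76 for Pon3, -0.69 for Pon2 and -0.37 for Pon1, and with the T cell score -0.79, -0.72 and -0.38. With the B cell score in the fit, Pon1 was -2.40 (SE 0.38) in DIO-HFD relative to CON-LFD and -1.44 (SE 0.38) in DIO-VSG relative to DIO-LFD, and Pon3 in DIO-VSG relative to CON-LFD was -0.21 (SE 0.19). The part of cell content in the Pon3 values was not tested further.

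Of the other marker lists, mammary epithelium had r = 0.58 with Pon1, thermogenic adipocytes 0.58 with Pon3, and hepatocytes 0.63 with Pon1, and removal of group means left 0.14, 0.56 and 0.40. Macrophage, endothelium, stromal fibroblast, skeletal muscle and keratinocyte scores had r between 0.04 and 0.49 with the 3 members, except -0.06 for Pon2 with keratinocyte. After removal of group means, endothelium had 0.40 with Pon1, 0.52 with Pon2 and 0.58 with Pon3. The rest of these lists then had -0.25 to 0.46. All 7 thermogenic markers and all 11 epithelial markers were on average lower in DIO-HFD than in CON-LFD, with median log2 fold changes of -3.09 and -0.78, beside 0.02 over all genes. Limma called none of them, and 5 of the thermogenic and 5 of the epithelial markers had an unadjusted p under 0.05, beside 12.9% of all genes.

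The HDL and lipoprotein genes are partners of the circulating paraoxonases. Of 25 such genes 16 could be tested, and limma called none in any comparison, with 1 at an unadjusted p under 0.05 in DIO-HFD relative to CON-LFD and 3, all lower, in DIO-VSG relative to DIO-LFD, beside 12.9% and 9.71% of all genes. The median log2 fold change in those comparisons was 0.04 and -0.51, beside 0.02 and -0.02 over all genes. Apoe, the apolipoprotein of lipid-loaded cells, had 87950.9 ± 22425.7 normalized counts (SD, n = 4) in CON-LFD and 89196.2 ± 14739.1 in DIO-HFD. Abca1, which loads cholesterol onto HDL, had log2 fold changes from -0.17 to 0.00 in the 6 comparisons. Apoc3, an inhibitor of lipoprotein lipase, averaged 6.91 in DIO-HFD and 78.4 ± 83.2 in DIO-LFD, where the library with liver transcripts held 202.0. Its lowest DIO-LFD library, at 28.6, was above every library of DIO-HFD (highest 12.0) and CON-LFD (highest 18.8). Limma adjusted p values were 0.296 and 0.601, and 4.51% and 3.53% of all genes did not overlap there. Apoa2 and the acute phase gene Saa3 were also uneven, at 50.7 ± 78.3 and 404.2 ± 465.0 in DIO-LFD, and their groups overlapped in every pair.

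Of 9 factors reported to act on paraoxonase genes 8 could be tested, and limma called none in any comparison, with 1 (lower) at an unadjusted p under 0.05 in DIO-HFD relative to CON-LFD and 0 in DIO-VSG relative to DIO-LFD, against 12.9% and 9.71% of all genes. Their median log2 fold change was -0.05 in both, beside 0.02 and -0.02 over all genes. Sp1, which binds GC boxes, stayed within 7842.5 to 8341.4 normalized counts as a group mean. Pparg, the master factor of fat cells, had means of 7940.5 ± 2082.1 (SD, n = 4) in CON-LFD, 5277.6 ± 1916.8 in DIO-HFD, 7982.6 ± 1656.7 in DIO-LFD and 5265.0 ± 1976.6 in DIO-VSG, and its groups overlapped in every pair. Ppara, a fatty acid sensor, averaged 215.9 ± 103.6 in DIO-HFD against 1093.2 ± 1004.2 in CON-LFD (log2 fold change -2.05, limma adjusted p = 0.25). Jun, a subunit of the factor AP-1, was lower without overlap in DIO-VSG than in DIO-LFD, at 3274.0 ± 281.4 against 4623.3 ± 522.6 (log2 fold change -0.49, limma adjusted p = 0.51), the comparison in which 18.8% of all genes did not overlap.

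Pon1 and Pon2 limit oxidation, and of 26 antioxidant enzymes limma called none in any comparison. At an unadjusted p under 0.05, 7 were lower in DIO-HFD than in CON-LFD (median of all 26, -0.17) and 2 were lower in DIO-VSG than in DIO-LFD, where 12.9% and 9.71% of all genes passed in either direction. All 26 estimates were below 0 in the latter comparison (median -0.22, beside -0.02 over all genes). So were all 13 adipocyte, all 11 epithelial and all 7 endothelial markers, with medians of -0.43, -0.42 and -0.56. All 10 B cell and all 10 T cell markers were above 0 there. Catalase (Cat), which breaks down hydrogen peroxide, had 56297.5 ± 14067.3 normalized counts (SD, n = 4) in CON-LFD, 31227.8 ± 8698.3 in DIO-HFD, 41443.4 ± 6156.0 in DIO-LFD and 38054.9 ± 5051.5 in DIO-VSG. Its CON-LFD and DIO-HFD libraries did not overlap (log2 fold change -0.87, limma adjusted p = 0.186). Gclc, the rate-limiting subunit of glutathione synthesis, was higher without overlap in both weight loss groups than in DIO-HFD (log2 fold changes 0.93 in DIO-LFD and 0.78 in DIO-VSG, limma adjusted p 0.296 and 0.243), whereas Pon1 was separate from DIO-HFD in DIO-LFD only. Gpx3, the secreted glutathione peroxidase, averaged 64603.6 ± 14659.9 in DIO-LFD and 27348.4 ± 20228.5 in DIO-VSG, and Sod3, the extracellular superoxide dismutase, 14753.5 ± 7762.6 and 9080.5 ± 2592.8.

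Among 21 tested esterases and hydrolases that share kinds of substrate with the paraoxonases, limma called none in any comparison, and at an unadjusted p under 0.05 there were 1 higher and 5 lower in DIO-HFD relative to CON-LFD and none in DIO-VSG relative to DIO-LFD, beside 12.9% and 9.71% of all genes. The medians were -0.18 and 0.01, against 0.02 and -0.02 over all genes. Ephx2, the soluble epoxide hydrolase, had 19009.1 ± 9823.2 normalized counts (SD, n = 4) in CON-LFD and 8195.0 ± 2119.0 in DIO-HFD without overlap (log2 fold change -1.14, limma adjusted p = 0.215), and stood at 11623.1 ± 966.1 in DIO-LFD, above every DIO-HFD library, and at 14266.8 ± 4670.9 in DIO-VSG, which overlapped with DIO-HFD. Lipe and Mgll, lipases of stored fat, had log2 fold changes of -0.45 and -0.01 in DIO-HFD relative to CON-LFD. The intestinal and hepatic carboxylesterases Ces2e and Ces2c were scarce, and both were higher without overlap in DIO-VSG than in DIO-LFD, at 97.4 ± 18.7 against 51.6 ± 18.7 and 22.9 ± 2.77 against 9.21 ± 2.62 (limma adjusted p 0.63 and 0.537). These 2 were the list's genes without overlap in that comparison, where 18.8% of all genes had none.

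The paraoxonases were also set beside the genes next to them. Of the 10 annotated protein-coding genes on either side, 16 were listed and 15 tested, and limma called none in any comparison, with 2 (higher) at an unadjusted p under 0.05 in DIO-HFD relative to CON-LFD and 0 in DIO-VSG relative to DIO-LFD, beside 12.9% and 9.71% of all genes. Their medians were -0.09 and -0.33, with 0.02 and -0.02 over all genes. Ppp1r9a, the nearest gene before Pon1 and a scaffold of actin and protein phosphatase, had log2 fold changes from -0.54 to 0.12 in the 6 comparisons. Asb4, the nearest gene after Pon2, had 33.5 to 51.0 normalized counts as a group mean. Pdk4, the kinase that shuts down pyruvate oxidation, varied widely within groups, at 17409.0 ± 18188.7 (SD, n = 4) in CON-LFD and 6567.5 ± 3068.3 in DIO-HFD. Peg10, an imprinted gene derived from a retrotransposon, averaged 698.2 ± 485.6 in CON-LFD, 6269.5 ± 6147.3 in DIO-HFD, 663.9 ± 412.9 in DIO-LFD and 363.7 ± 140.9 in DIO-VSG. Its estimates were opposite in sign to those of Pon1 in the 3 comparisons with DIO-HFD and of the same sign in the other 3, and limma adjusted p values were 0.243 to 0.988.

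The remaining neighbors tested gave log2 fold changes in DIO-HFD relative to CON-LFD from -0.87 for Dlx5, a homeobox gene, to 0.63 for Tfpi2, a protease inhibitor. Between them were Sdhaf3 at -0.27, Tac1 at -0.27, Bet1 at -0.12, Asns at -0.09, Casd1 at -0.08, Sgce at 0.01, Col1a2 at 0.12, Slc25a13 at 0.33 and Gng11 at 0.58, and their groups overlapped in each case.

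**Figure D5:**
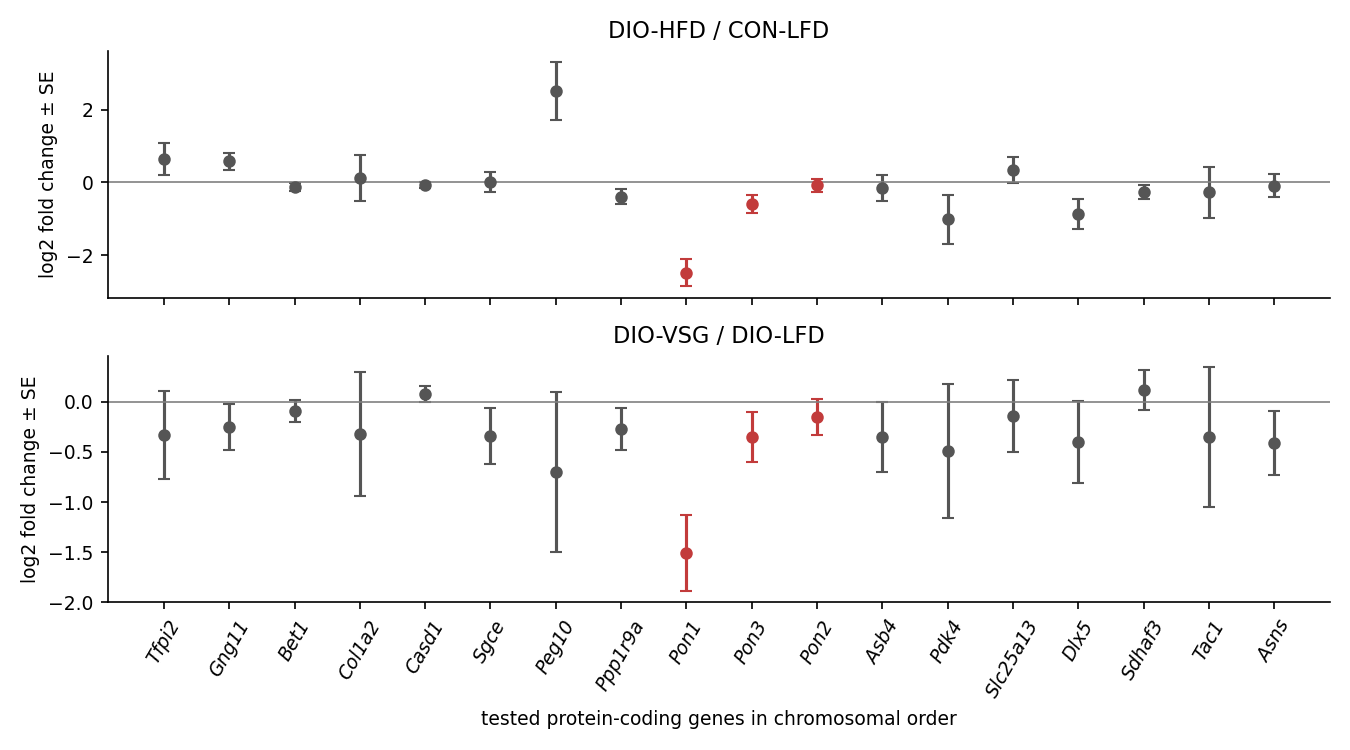
Log2 fold change ± SE of the paraoxonases (red) and of the 15 tested neighboring protein-coding genes (grey), in chromosomal order and evenly spaced, for DIO-HFD relative to CON-LFD (top) and DIO-VSG relative to DIO-LFD (bottom). In the top panel, which holds the value that chose the family, Pon1 is at -2.48 and Peg10 at 2.51, and in the bottom panel Pon1 is the lowest point, at -1.51.

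The genes whose levels were most like those of each member across the 16 libraries were found by Pearson's r of log2 levels, a description over libraries that share their scaling. For Pon1 they were Ivd (r = 0.899), an enzyme of leucine breakdown, Lzts3 (0.882), Man2a2 (0.876), a mannosidase that trims N-glycans, Phka2 (0.873), a subunit of phosphorylase kinase, Klf15 (0.863), a transcription factor of metabolic tissues, and Pde1a (0.858), a calmodulin-dependent phosphodiesterase. Removal of group means left r of 0.619 to 0.794 for these 6. Ivd had 9698.1 ± 1371.6 normalized counts (SD, n = 4) in CON-LFD, 6300.5 ± 1322.7 in DIO-HFD, 9393.5 ± 969.4 in DIO-LFD and 6716.8 ± 523.4 in DIO-VSG. Klf15 had 2896.0 ± 208.3, 1545.5 ± 486.5, 2497.5 ± 744.8 and 1712.4 ± 367.8. Both were thus high in the low-fat groups without gastrectomy and low in DIO-HFD and DIO-VSG, with smaller ratios between groups than Pon1.

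For Pon2 the nearest genes were Tfg (r = 0.965) and Copb2 (0.954), which act in transport from the endoplasmic reticulum, and Ufsp2 (0.965), a protease of the modifier UFM1. For Pon3 they were Cd99l2 (0.977), a surface glycoprotein, Smim10l1 (0.968) and Pcnx (0.962). These values were as high after removal of group means, at 0.957 or more and 0.955 or more. Among the paraoxonases themselves r was 0.773 for Pon2 with Pon3, 0.75 for Pon1 with Pon3 and 0.411 for Pon1 with Pon2, and 0.809, 0.602 and 0.472 after removal of group means.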

How the data were processed

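Total RNA libraries (stranded, paired-end) of contralateral mammary fat pad from 16 mice were analyzed, 4 per group, with groups and replicate numbers taken from sample labels. The authors' methods name STAR and salmon with GRCm38, whereas the submitters' processing notes name TopHat2 2.0.7, HTSeq 0.5.3p9, DESeq2 and mm10; which tools made the table is not settled by these sources. The deposited table holds log2-scale values, variance-stabilized by the authors, whose shared minimum is 5.36. Inverting that transformation gave normalized counts, which became whole reads (tolerance 0.05) for 100.0% of entries once divided by the value of 1 read in their library. 0 columns were left without a sample.

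The design had assumed this conversion. The main test was limma-trend in limma 3.58.1 under R 4.3.3. It was run on log2(normalized count + 1) over the 16 libraries together, with group alone in the model, for genes that reached 10 normalized counts in 4 or more libraries, with Benjamini-Hochberg adjustment over all genes tested in each comparison and a threshold of 0.05. Because of the added 1, fold changes of scarce genes such as Pon1 are slightly understated. Exact permutation tests used SciPy 1.17.1. The fit was checked on simulated data. Between replicates of a group, the chi-square per gene was at least 64.4, so no library of a group was present under 2 names (pairs across groups were not compared), and Pearson's r across genes was 0.9032 to 0.9825. Positions and lengths came from GENCODE M21 on GRCm38, which held 22176 (95.7%) of the listed symbols once.

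The members and all gene lists were chosen with earlier results of these data known, and the motifs after the sequences had been seen. Genes were named by rule: the members, in each pathway list the 2 highest and the 3 with the widest range of group means, all tested chromosomal neighbors, and the genes of highest Pearson's r (6 for Pon1, 3 each for Pon2 and Pon3), leaving out predicted genes and pseudogenes. Alb, Fgb, Fgg, Serpina1b, Tdo2, Fabp4 and Adipoq were singled out after their values were seen. Alternatives were other pseudocounts, filters, scalings, library weights, fits of 2 groups, a replicate block, marker scores as covariates, leaving out each library and, added after seeing the data, limma-voom, another transcript length and hepatocyte marker levels without single DIO-LFD libraries.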

Additional observations from a re-analysis of the deposited data

Results flagged for a closer look

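Pon2 in DIO-VSG replicate 4 (3852.0 normalized counts) stood apart from the other 3 DIO-VSG libraries (3458.3 to 3510.2), with a gap of 0.862 of the group's range on the log2 scale, above Dixon's 95% critical value for 4 samples. The library lies inside the Pon2 range of every other group. Chance flags about 1 in 20 groups, and 24 groups of values were examined.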

How the results depend on the processing

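Across 30 alternatives, Pon1 kept its direction in 5 of 6 comparisons, and in DIO-VSG relative to DIO-HFD it was below 0 in 2. Part of these alternatives cannot move an estimate and so do not count as agreement. They are the filters, fits of 2 groups, the replicate block and leaving out a library of a group not compared. On the deposited variance-stabilized scale, which compresses low values by construction, Pon1 was -1.39 in DIO-HFD and -1.35 in DIO-VSG relative to CON-LFD, and 0.84 for DIO-LFD over DIO-HFD. With library weights, which gave DIO-HFD replicate 4 a weight of 10.9 against at most 2.35 elsewhere, Pon1 was -0.65 for DIO-VSG and 0.81 for DIO-LFD, both over DIO-HFD; these weights raised the genes called in DIO-HFD relative to CON-LFD from 8 to 4196. With the adipocyte score, Pon1 in DIO-VSG relative to CON-LFD was -1.88. In DIO-VSG relative to DIO-LFD, Pon1 passed limma's adjusted threshold with library weights (-1.46, adjusted p = 0.0494) and in a fit of those groups alone (-1.51, adjusted p = 0.0152), which called 184 and 1533 of all genes there (0 as reported), over a range of adjusted p from 0.0152 to 0.999. The exact permutation test without any 1 library gave -1.64 to -1.38 and p = 0.0571, the smallest possible with 7 libraries.

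Pon3 in DIO-VSG relative to CON-LFD passed the threshold with library weights (-0.69, limma adjusted p = 0.0198), which called 4226 of 21218 genes in that comparison. Some values changed sign, and not only those near 0. In DIO-HFD relative to CON-LFD, Pon2 was 0.06 with total-count scaling, 0.09 with the adipocyte score and -0.24 to 0.04 without single libraries. For DIO-LFD over DIO-HFD, Pon2 was 0.12 with library weights, 0.05 with the B cell score and -0.18 to 0.11 without single libraries. Pon2 was 0.05 with the B cell score in DIO-LFD relative to CON-LFD, and 0.08 with the adipocyte score in DIO-VSG relative to DIO-LFD. Pon3 in DIO-VSG relative to DIO-HFD was 0.24 with the B cell score and -0.35 to 0.10 without single libraries. With the adipocyte score Pon3 was -0.05 for DIO-LFD over DIO-HFD (0.26 as reported) and 0.04 in DIO-VSG relative to DIO-LFD (-0.35 as reported). Without single libraries the former was -0.01 to 0.44. The cause of these changes was not tested.

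Replicate numbers did not pair the samples: same-numbered libraries correlated from -0.609 to 0.534 (9 of 24 pairs over 0.1). A replicate block cannot move a member's estimate, since every group holds the same replicate numbers. With it the limma adjusted p of Pon1 in DIO-VSG relative to DIO-LFD (-1.51) was 0.556. It lowered the genes called in DIO-HFD relative to CON-LFD from 8 to 1. That count was 34 with the adipocyte score, 17 with the B cell score, 19 with total-count scaling, 1 with upper-quartile scaling, 3 with quantile normalization, and 0 with limma-voom or with those groups alone. It was 0 to 128 without single libraries, with 128 without CON-LFD replicate 3, whose omission also gave 873 in DIO-VSG relative to CON-LFD. At this depth, counting error is small for Pon2 and Pon3. For Pon1 in DIO-VSG it is of the size of the spread between mice, since the Poisson interval of the lowest library, 19.1 to 41.5 normalized counts, holds 3 of the 4 values.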
